A study of Mus musculus with 13 samples.

Results

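Collagen genes that are not specific to cartilage were followed through developing mouse limb buds with and without Sox9. They were chosen by symbol, as 9 of the 12880 genes in the deposited expression table. Among them, 6 encode chains of the fibrils of loose and dense connective tissue or of a protein bound to their surface (Col1a1, Col1a2, Col3a1, Col5a1, Col5a2 and Col12a1). The other 3 encode chains of basement membranes (Col4a1, Col4a2 and Col18a1). All 9 were found, and all 9 passed the filter of at least 1 RPKM in at least 3 libraries, which removed no gene.

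Sox9 is a transcription factor that cartilage formation requires, and the study set limb buds lacking it against controls at the onset of chondrogenesis by RNA-seq. At E11.5 (E for embryonic day) the controls were Sox9fl/- embryos (n = 3), which carry a null allele beside a floxed one, and the mutants were Sox9-/- embryos (labelled Sox9null, n = 4). At E12.5 the controls were Sox9fl/fl embryos (n = 3) and the mutants were Sox9fl/flPrx1CreER embryos (labelled Sox9cKO, n = 3). In the latter, a Cre recombinase fused to an oestrogen receptor is driven by Prx1 sequences that are active in limb mesenchyme, so other limb cells keep the gene. The sources used here do not name the inducer or its timing. Each library came from the limb buds of a separate embryo, and whole limb buds were used, so fewer cells of a type and less RNA per cell cannot be told apart in any value below. Comparisons between ages also differ in the genotype of the controls and in how Sox9 was removed, which cannot be told apart from age.

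A collagen molecule is a triple helix wound from 3 chains, and the helix needs a glycine at the start of each triplet of residues because no larger side chain fits at its core. Fibrillar collagens form one long uninterrupted helix and pack side by side into fibrils: the type I heterotrimer of Col1a1 and Col1a2 chains and the type III homotrimer of Col3a1 make up most of the fibril mass, and type V (Col5a1, Col5a2) starts fibrils and limits their width. Type XII (Col12a1) has short helices and large non-collagen domains and sits on fibril surfaces. Type IV (Col4a1, Col4a2) has a helix broken by many interruptions and forms the network of basement membranes, and type XVIII (Col18a1), the source of endostatin, is a basement membrane proteoglycan. In the early limb bud, mesenchyme makes types I and III before cartilage turns to type II, and basement membranes underlie the ectoderm and surround vessels.

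The repeat that defines the family can be read in the genes themselves. The following 54 bases are from coding exons in GENCODE release 21 (GRCm38, the mm10 assembly named by the submitters), written 5′ to 3′ on the strand of the gene, with the glycine codons in capitals. They show the same period in both chains of type I and both chains of type IV. They lie at chr11:94938504-94938557 (plus strand), chr6:4510684-4510737 (plus), chr8:11247042-11247095 (minus) and chr8:11398662-11398715 (plus).
Col1a1: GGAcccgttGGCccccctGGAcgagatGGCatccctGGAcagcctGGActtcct
Col1a2: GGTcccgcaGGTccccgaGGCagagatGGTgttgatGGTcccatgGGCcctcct
Col4a1: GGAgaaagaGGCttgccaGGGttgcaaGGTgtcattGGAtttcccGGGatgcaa
Col4a2: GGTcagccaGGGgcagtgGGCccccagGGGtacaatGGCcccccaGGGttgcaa
Counted over each coding sequence, the longest unbroken run of such triplets was 338 in Col1a1, 339 in Col1a2, 344 in Col3a1, 338 in Col5a1 and 339 in Col5a2. It was 40 in Col4a1, whose triplets fell into 23 runs of at least 3, and 66 in Col4a2, with 24 runs. Col18a1 reached 30 and Col12a1 reached 32. The long-helix fibrillar chains thus stood apart from the other 4 members in the sequence as they do in the protein classification.

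Col4a1 (chr8:11198423-11312826, minus strand) and Col4a2 (chr8:11312805-11449287, plus strand) start head to head, as is known for this pair. Their annotated ends overlap by the 22 bases of chr8:11312805-11312826, shown here on the plus strand because it is where reads could be given to either gene if strand was not used.
Col4a1-Col4a2 overlap: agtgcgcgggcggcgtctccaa
The remaining members lie apart, with the exception of Col3a1 (chr1:45311538-45349706, plus) and Col5a2 (chr1:45374321-45503282, minus), which are neighbours on chromosome 1. Col1a1 is at chr11:94936224-94953042 (plus), Col1a2 at chr6:4504814-4541544 (plus), Col5a1 at chr2:27886425-28039514 (plus), Col12a1 at chr9:79598991-79718831 (minus) and Col18a1 at chr10:77052178-77166548 (minus).

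Start site windows from RefSeq (GRCm38.p6) matched 6 of the 9 members, Col1a2, Col3a1, Col5a1, Col4a1, Col4a2 and Col18a1. The 250 bases before each start were searched on both strands. The motifs were the TATA box, spelled TATAAA, the CCAAT box, spelled by its name, the GC box, spelled GGGCGG, and a core that SOX proteins can bind, spelled AACAAT. No motif of the 4 contains another. Col3a1 alone held TATAAA, which is in 12.4% of 32851 windows, and Col3a1 alone held AACAAT, which is in 9.42%. The TATAAA match begins 117 bases before the start and is not read as a working TATA box. CCAAT, in 33.8% of windows, was in Col1a2, Col4a1, Col4a2 and Col18a1, and GGGCGG, in 32.7%, was in Col1a2, Col5a1, Col4a2 and Col18a1. The Col18a1 matches were all in its window at chr10:77166531-77166780, and its other window (chr10:77113706-77113955) held none of the motifs. The windows of Col3a1 (chr1:45311288-45311537) and Col1a2 (chr6:4505368-4505617), a pair of fibrillar members that share none of these motifs, are printed with the matches in capitals. The RefSeq start of Col1a2 (chr6:4505618) lies downstream of its GENCODE gene start (chr6:4504814), so this window is inside the gene as placed above. The AACAAT matches of Col3a1 face each other on opposite strands and overlap by 2 bases.
Col3a1: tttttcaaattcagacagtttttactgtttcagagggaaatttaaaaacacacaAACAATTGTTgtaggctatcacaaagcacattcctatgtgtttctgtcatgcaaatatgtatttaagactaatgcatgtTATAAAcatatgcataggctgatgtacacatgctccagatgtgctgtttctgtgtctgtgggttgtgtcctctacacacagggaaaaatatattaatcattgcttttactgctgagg
Col1a2: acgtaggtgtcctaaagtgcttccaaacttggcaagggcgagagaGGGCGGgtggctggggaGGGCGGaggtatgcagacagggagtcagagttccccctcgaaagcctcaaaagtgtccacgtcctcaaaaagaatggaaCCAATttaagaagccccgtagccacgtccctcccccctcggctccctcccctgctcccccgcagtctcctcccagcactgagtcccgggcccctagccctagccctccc
A match describes letters only, and these values hold no measurement of binding.

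Before the comparisons, the libraries themselves need a word. Clustering on all genes split the 7 libraries of E11.5. Controls 1 and 3 went with Sox9null 3 and 4, called the set of 4 here, and control 2 went with Sox9null 1 and 2, called the set of 3. Pearson r of log2 values was 0.979 to 0.989 within the set of 4, 0.982 to 0.984 within the set of 3 and 0.938 to 0.966 between them. The labels give no batch, so what the sets are is not known here. Both genotypes are found in both sets, and the members' E11.5 mutant differences are given with and without the set as a term. Sox9 itself read 35.8, 49.3 and 37.1 RPKM in the E11.5 controls against 20.6, 25.7, 25.04 and 22.7 in Sox9null (log2 difference -0.76, adjusted p = 0.036), and 37.5, 35.2 and 35.9 against 35.1, 28.7 and 32.2 at E12.5 (-0.18, adjusted p = 1). The value covers the whole gene, and the sources used here do not say which part was deleted, so it checks the labels only in part. Limb mesenchyme markers were all present (10 of 10, such as Prrx1 and Msx1), with a summed level of 385 to 459 RPKM over the 13 libraries.

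All 9 collagens were expressed in every library, and Col3a1 had the highest mean. RPKM is scaled by length, so levels are set side by side between genes. This has a limit, as the difference between the E11.5 library sets rose with transcript length (Spearman's rho 0.454 across genes). Over the 13 libraries Col3a1 had a mean of 64.7 RPKM and ranked first of the 9 in 11 libraries. Col4a1, with a mean of 56.9, was first in the other 2, E11.5 control 2 and Sox9null 1, both of the set of 3. Col1a2 (43.0), Col4a2 (40.8), Col18a1 (36.9), Col5a1 (34.2), Col1a1 (31.7) and Col5a2 (30.2) followed, and the range of each over libraries overlapped that of the next. Col12a1 was the lowest of the 9 in all 13 libraries, with a mean of 13.7 RPKM and a range of 7.88 to 18.8. The order of the others varied with the library set. Col4a1 and Col3a1 had means of 65.46 and 65.42 in the set of 3, against 56.5 and 67.8 in the set of 4. The rank of Col1a1 ran from 4 to 8.

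**Figure D1:**
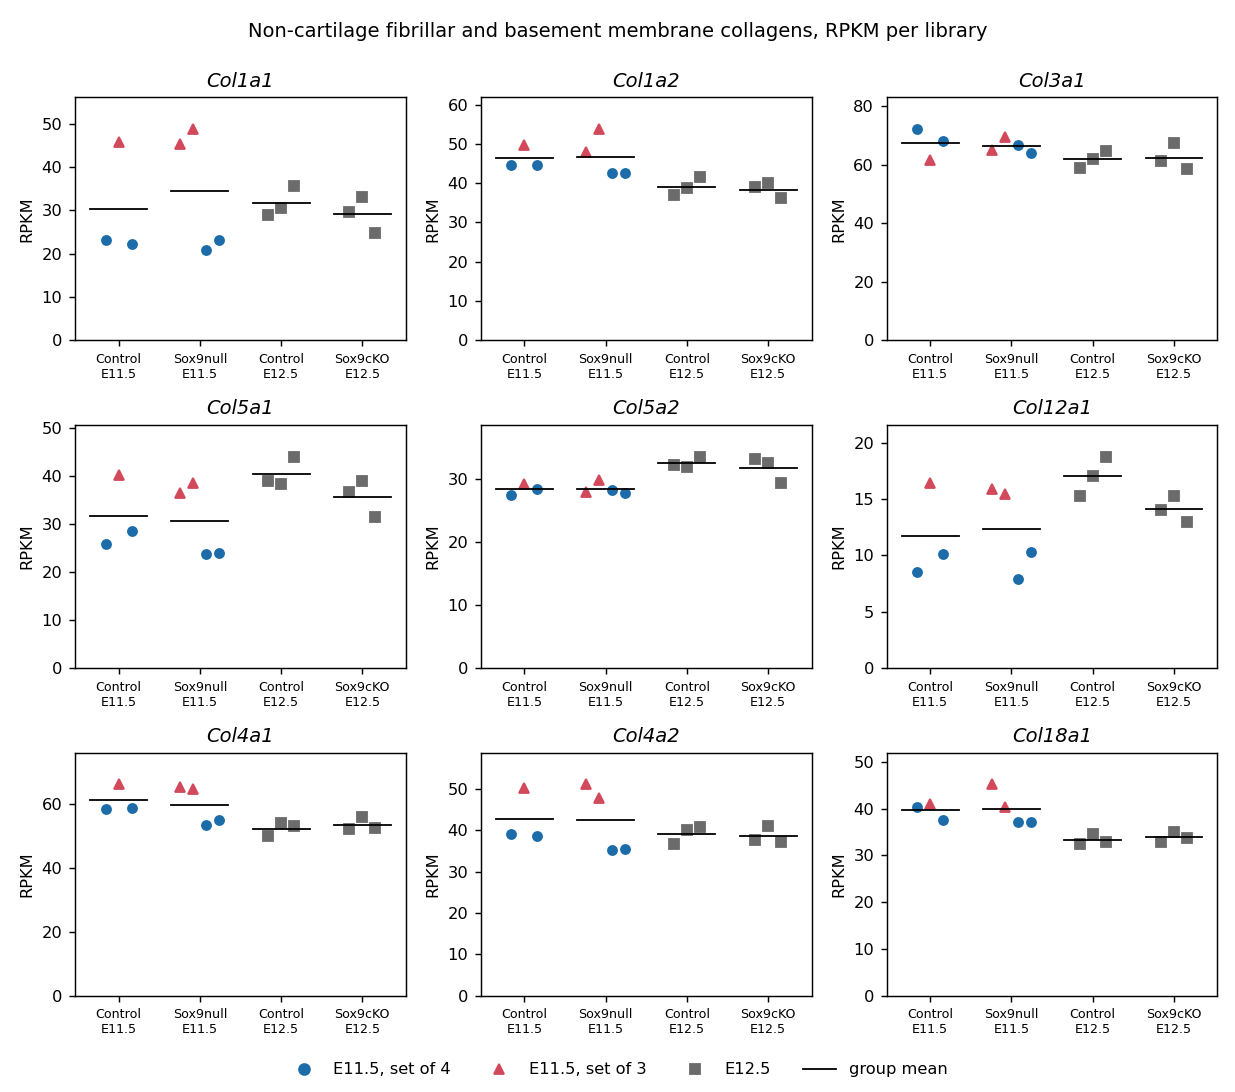
RPKM of the 9 collagen genes (vertical axes, from 0) in each of the 13 libraries, by group (horizontal axes); bars are group means, circles and triangles mark the E11.5 sets of 4 and 3, and squares mark E12.5. Mutants and controls overlap in every panel, while in the Col1a1 panel the triangles lie at 45.3 to 48.8 RPKM and the circles at 20.8 to 23.1 RPKM.

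The first question is whether loss of Sox9 changed these genes. At neither age did any of the 9 pass the test, and for each of them the ranges of mutant and control libraries overlapped. At E11.5, 0 of 9 were called by limma at an adjusted p under 0.05, where 0.0543% of all genes were called (7 of 12880). At E12.5, 0 of 9 were called, where 0.194% were (25 genes). At an unadjusted p under 0.05 the counts over all genes were 363 (2.82%) and 697 (5.41%), with 0 of 9 members in either. Ranges without overlap were found for 2.47% of all genes at E11.5 and 20% at E12.5. With so few genes called over the whole table, the counts alone say little about the members, and the intervals say more.

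Col1a1, the major chain of type I collagen, read 23.1, 45.7 and 22.3 RPKM in the E11.5 controls and 45.3, 48.8, 20.8 and 23.1 in Sox9null. At E12.5 it read 28.9, 30.5 and 35.7 in controls and 29.6, 33.2 and 24.9 in Sox9cKO. The E11.5 values fell into a high and a low group that followed the library sets in both genotypes. The mutant difference was 0.16 on the log2 scale at E11.5 (95% confidence interval -0.52 to 0.84) and -0.12 at E12.5 (-0.84 to 0.61). With the library set as a term, the E11.5 difference was -0.013 and its interval narrowed to -0.22 to 0.19, with the sets formed from these same libraries.

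Col1a2, the partner chain, read 44.7, 49.6 and 44.8 RPKM in the E11.5 controls and 47.9, 53.8, 42.6 and 42.7 in Sox9null. Its E12.5 values were 36.9, 38.8 and 41.5 in controls and 39.0, 40.0 and 36.2 in Sox9cKO. Controls and mutants were interleaved at each age. The differences were 0.0068 (-0.17 to 0.18) and -0.024 (-0.21 to 0.17).

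Col3a1, the homotrimeric fibril collagen of pliable tissue, read 72.2, 61.8 and 68.1 RPKM in the E11.5 controls and 64.9, 69.5, 66.8 and 64.0 in Sox9null. At E12.5 it read 58.9, 62.1 and 64.9 in controls and 61.3, 67.6 and 58.4 in Sox9cKO. The highest member was thus also among the steadiest. Its differences were -0.021 (-0.17 to 0.13) and 0.0091 (-0.15 to 0.17).

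Col5a1 and Col5a2 encode the type V chains that nucleate fibrils. Col5a1 read 25.9, 40.1 and 28.6 RPKM in the E11.5 controls and 36.3, 38.4, 23.6 and 24.0 in Sox9null. Its E12.5 values were 38.9, 38.3 and 43.9 in controls and 36.5, 38.8 and 31.4 in Sox9cKO. Again the high E11.5 values were those of the set of 3, and the mutant differences were -0.051 (-0.46 to 0.35) and -0.18 (-0.61 to 0.25). Col5a2 read 27.5, 29.4 and 28.5 RPKM in the E11.5 controls and 28.1, 30.0, 28.3 and 27.8 in Sox9null. At E12.5 it read 32.3, 32.0 and 33.6 in controls and 33.2, 32.7 and 29.5 in Sox9cKO. Col5a2 had the narrowest interval of the 9, with differences of 0.0042 (-0.10 to 0.11) and -0.039 (-0.15 to 0.076).

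Col12a1, the collagen of fibril surfaces, read 8.50, 16.4 and 10.1 RPKM in the E11.5 controls and 15.9, 15.4, 7.88 and 10.3 in Sox9null. At E12.5 it read 15.2, 17.0 and 18.8 in controls and 14.0, 15.3 and 13.0 in Sox9cKO. At E12.5 the lowest control (15.25) and the highest mutant (15.27) were the only libraries that crossed. The differences were 0.075 (-0.44 to 0.59) and -0.26 (-0.80 to 0.29), the latter the largest in size of the 9 at E12.5.

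Col4a1 and Col4a2 encode the chains of the basement membrane network. Col4a1 read 58.6, 66.2 and 58.9 RPKM in the E11.5 controls and 65.4, 64.7, 53.6 and 54.9 in Sox9null. Its E12.5 values were 49.9, 53.9 and 53.03 in controls and 52.1, 56.1 and 52.5 in Sox9cKO. Its differences were -0.041 (-0.21 to 0.13) and 0.034 (-0.15 to 0.22), and the E11.5 value was -0.078 once the library set entered the fit (-0.16 to -0.00044, adjusted p = 0.344), not past the threshold. Col4a2 read 39.1, 50.1 and 38.6 RPKM in the E11.5 controls and 51.1, 47.8, 35.3 and 35.4 in Sox9null. Its E12.5 values were 36.7, 39.9 and 40.8 in controls and 37.6, 41.0 and 37.1 in Sox9cKO. The differences were -0.017 (-0.31 to 0.27) and -0.021 (-0.33 to 0.29), with no separation of mutant from control in either chain.

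Col18a1 read 40.4, 40.9 and 37.5 RPKM in the E11.5 controls and 45.2, 40.3, 37.1 and 37.2 in Sox9null. Its E12.5 values were 32.5, 34.5 and 32.8 in controls and 32.8, 35.1 and 33.8 in Sox9cKO. The differences were 0.0076 (-0.14 to 0.15) and 0.027 (-0.13 to 0.18). All 7 libraries of E11.5 lay above all 6 of E12.5.

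With the library set as a term, the E11.5 mutant difference was below 0 in all 9 members and called in none (adjusted p from 0.344 to 0.969, limma). It was -0.15 in Col5a1 (-0.30 to 0.0034) and -0.088 in Col4a2 (-0.19 to 0.012), each larger in size than without the set. The other members without a value above were at -0.049 (Col12a1), -0.028 (Col1a2), -0.016 (Col18a1), -0.012 (Col3a1) and -0.0047 (Col5a2). The share of all genes below 0 in this fit is not given here, so the shared sign is not read as particular to the members.

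The difference between the mutant effects at the 2 ages was tested as an interaction. It was called for 0 of 9 members, where 0.0311% of genes were called (4 of 12880, and 393, or 3.05%, at an unadjusted p under 0.05). It was -0.28 for Col1a1 (-1.27 to 0.72) and -0.33 for Col12a1 (-1.08 to 0.42). These comparisons share their libraries with the single-age ones and are no separate support for them. A p above the threshold does not show that mutant and control were equal. The width of the intervals, narrow for Col5a2 and wide for Col1a1, gives the precision of the fit without the library set. That fit has 1 spread per gene over all groups, so the split of the E11.5 libraries also enters the E12.5 intervals. With the set as a term, the E12.5 adjusted p by limma was 0.636 for Col1a1 and 0.292 for Col12a1. The E12.5 intervals of that fit are not given here.

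**Figure D2:**
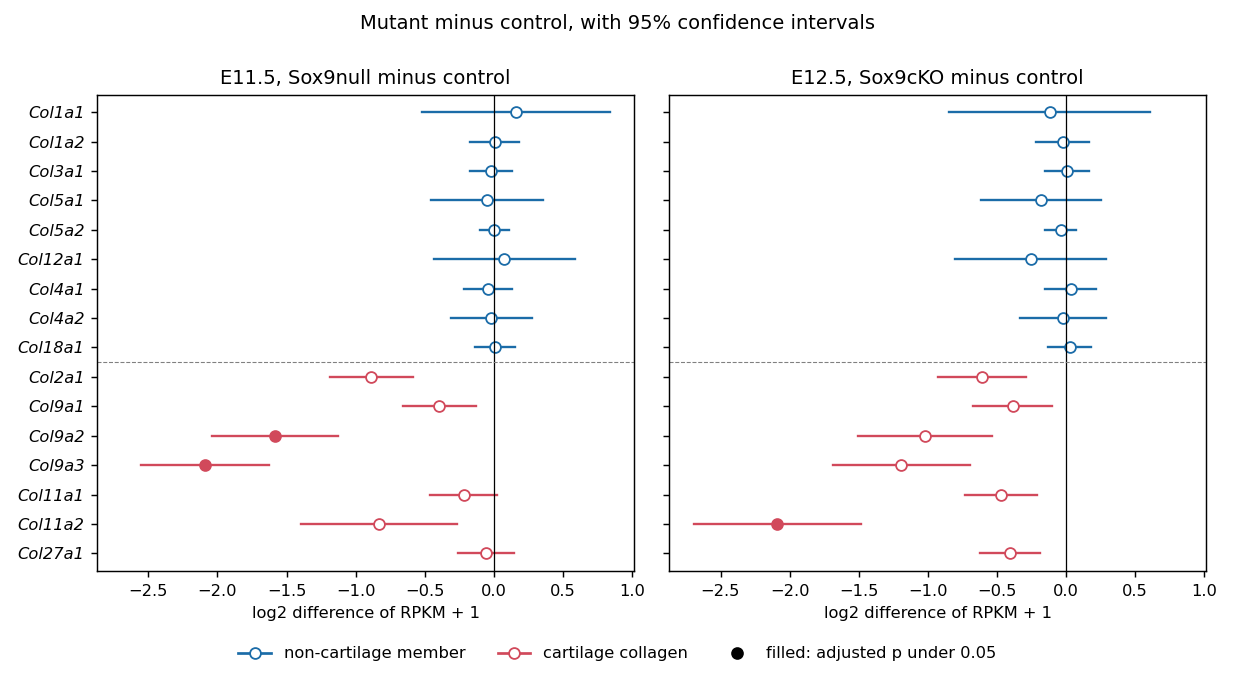
Log2 difference (horizontal axis) of mutant minus control for the 9 members (blue) and the 7 cartilage collagens of the table (red) at E11.5 (left) and E12.5 (right), with 95% confidence intervals from limma; filled circles are called. The members lie between -0.26 and 0.16, while Col9a3 reaches -2.09 at E11.5 and Col11a2 reaches -2.09 at E12.5.

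Cartilage collagens were measured in the same libraries, and a few of them passed the test. At E11.5, 2 of the 7 fell (Col9a3 by 2.09 and Col9a2 by 1.58 on the log2 scale), and at E12.5 only Col11a2 did (by 2.09). All 7 had values below 0 at both ages, with medians of -0.83 and -0.61. The members and the cartilage collagens were not tested against each other. Col2a1, the main fibril collagen of cartilage, missed the threshold at E11.5 (-0.89, adjusted p = 0.0537) and at E12.5 (-0.61, adjusted p = 0.186). As a sum, the 9 members held 359 ± 35.6 RPKM in E11.5 controls (SD, n = 3), 361 ± 50.2 in Sox9null (n = 4), 347 ± 17.4 in E12.5 controls (n = 3) and 337 ± 21.5 in Sox9cKO (n = 3). The 7 cartilage collagens held 160 ± 27.7, 91.8 ± 11.9, 271 ± 25.6 and 158 ± 23.2 RPKM in the same order. The members' share of the RPKM of all 30 collagen genes was 55.6% ± 2.71 and 61.8% ± 0.719 at E11.5, and 42.0% ± 2.28 and 50.8% ± 1.95 at E12.5. The lowest mutant share was above the highest control share at each age (60.8% against 58.6% at E11.5, 48.6% against 44.5% at E12.5), while the members' own sums overlapped.

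Erythroid markers were tallied for the same libraries. All 15 of the table had mutant differences above 0 at both ages, with 0 called at E11.5 and 2 at E12.5, Rhag (0.77) and Spnb1 (0.76). Their summed level at E11.5 was 876 to 975 RPKM in controls, 909 and 925 in Sox9null 1 and 2, and 1413 and 1561 in Sox9null 3 and 4, so the latter pair stood apart and the former lay within the control range. At E12.5 the sums were 697 to 742 in controls and 942 to 1160 in Sox9cKO, without overlap. RPKM is relative to the whole library, where all genes summed to 244524 to 267508 RPKM. With totals equalised outside the erythroid list 0 members were called in the mutant comparisons, as under every alternative run. The list is a small part of those sums, so this scaling can say little about the erythroid difference. Endothelial markers, whose cells lie on basement membranes, had 16 of 17 mutant differences above 0 at each age, with medians of 0.13 and 0.079 beside 0.0097 and 0.013 over all genes, and 0 of 17 were called at either age. They summed to 213 to 228 RPKM in E11.5 controls, 224 to 258 in Sox9null, 250 to 259 in E12.5 controls and 257 to 274 in Sox9cKO. The part of either cell type in the members' values was not tested.

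Chains of one molecule can be compared within a library, which takes out the scaling between libraries. The ratio of Col1a1 to Col1a2 was 0.516, 0.922 and 0.499 in the E11.5 controls and 0.945, 0.907, 0.488 and 0.541 in Sox9null. It was 0.783, 0.787 and 0.860 in the E12.5 controls and 0.759, 0.8294 and 0.687 in Sox9cKO. The ratio thus took 3 levels: 0.511 ± 0.0233 in the set of 4, 0.925 ± 0.0191 in the set of 3 (n = 3) and 0.784 ± 0.0597 over E12.5 (n = 6), with no overlap between any of them. The ratio of Col5a1 to Col5a2 was 0.910 ± 0.0761 in the set of 4, 1.31 ± 0.0460 in the set of 3 and 1.18 ± 0.0858 at E12.5. The ratio of Col4a1 to Col4a2 ran the other way, at 1.52 ± 0.0216, 1.32 ± 0.0377 and 1.36 ± 0.0385. Mutants and controls overlapped in the Col1a1 to Col1a2 ratio at both ages. At E12.5 the other pairs did not overlap: for type V the 3 controls (1.19 to 1.31) lay above the 3 mutants (1.06 to 1.187), and for type IV the 3 controls (1.299 to 1.36) lay below the 3 mutants (1.37 to 1.41). The gaps were small, 1.187 against 1.19 for type V and 1.36 against 1.37 for type IV. At E11.5 mutants and controls overlapped in both of these ratios. Of all genes, 20% had ranges without overlap at E12.5, and a share over ratios of other gene pairs is not given. These are descriptions with no test.

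**Figure D3:**
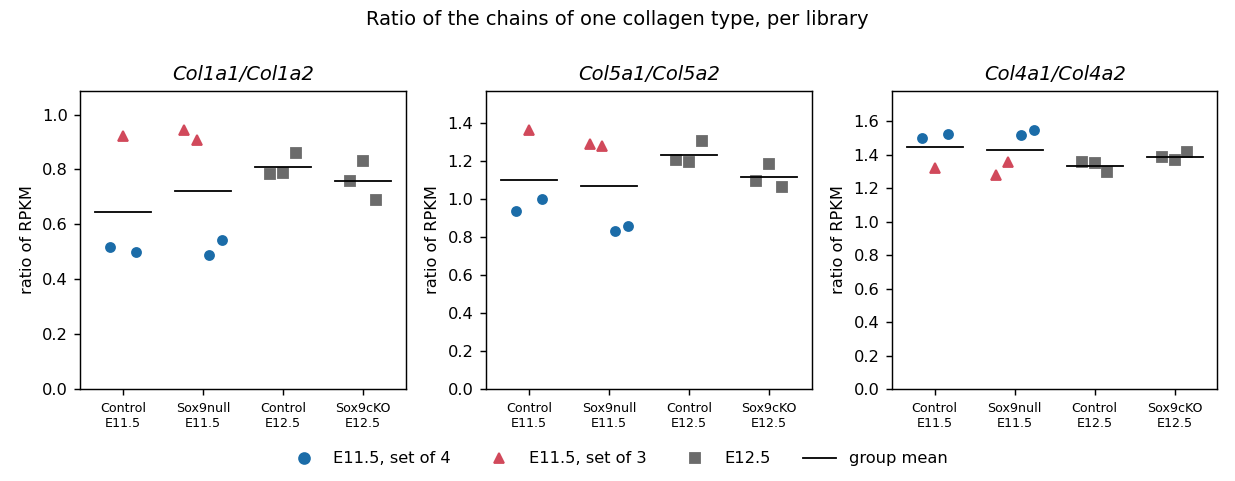
Ratio of the RPKM of paired chains (vertical axes, from 0) in each library, by group (horizontal axes), with bars for group means and symbols for the library sets. For Col1a1/Col1a2 the circles lie at 0.488 to 0.541 and the triangles at 0.907 to 0.945 in both E11.5 genotypes.

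Of the 9 members, Col1a1 differed most between the library sets. The set of 3 exceeded the set of 4 by 1.02 on the log2 scale in Col1a1, by 0.98 within controls and 1.07 within Sox9null. The difference was 0.75 in Col12a1, 0.59 in Col5a1, 0.42 in Col4a2, 0.21 in Col4a1, 0.20 in Col1a2, 0.13 in Col18a1 and 0.056 in Col5a2. It was -0.070 in Col3a1, which was the one member below 0, with -0.18 within controls and 0.038 within Sox9null. Over all genes the median was -0.11 with an SD of 0.315, and 6.55% of genes differed by 0.5 or more in size, against 3 of the 9 members. The sets were formed from these values, so this is a description with no test.

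Transcript length moved with the set difference. Across 12715 genes with a GENCODE match, Spearman's rho was 0.454 with transcript length and 0.0516 with GC content; genes are not independent replicates, and all points share the same 7 libraries. The median set difference was -0.18 in decile 1 of length and -0.27 in decile 2, and from there it was higher in each decile up to 0.20 in decile 10. Collagen transcripts are long, from 5348 bases (Col1a2) to 11511 bases (Col12a1), so members belong to deciles 9 and 10. Within its own decile Col1a1 was at percentile 99.8, Col12a1 at 95.05, Col4a2 at 93.1, Col5a1 at 88.8, Col4a1 at 77.4, Col1a2 at 75.8, Col18a1 at 67.3, Col5a2 at 52.99 and Col3a1 at 26.4. Col1a1 (5930 bases) and Col3a1 (5564 bases) are close in length and far apart in this percentile. The part of length in the result was not tested further.

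**Figure D4:**
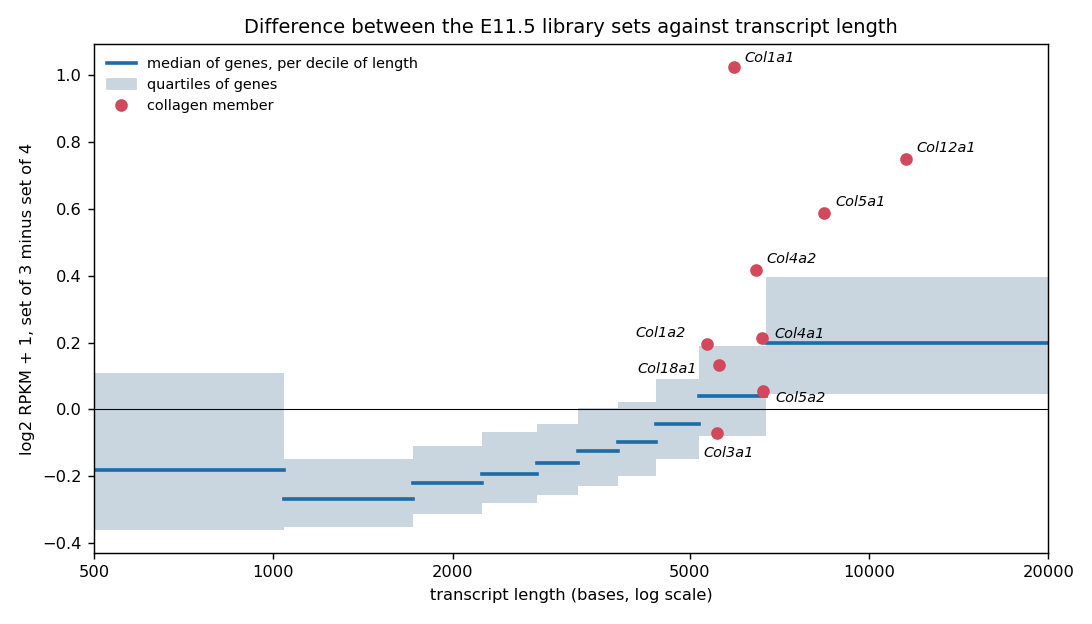
Log2 difference between the E11.5 set of 3 and set of 4 (vertical axis) against transcript length in bases (horizontal axis, log scale, drawn from 500 to 20000 with the outer deciles cut there); lines and bands are the median and quartiles of genes in each decile of length, and points are the 9 members. The medians climb from -0.27 in decile 2 to 0.20 in decile 10, and Col1a1 lies at 1.02 above a decile whose median is 0.041.

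The set difference of other matrix genes was tallied against all genes, of which 33.1% were above 0. All 14 other collagens and all 7 cartilage collagens were above 0, with medians of 0.27 and 0.29. Of the genes of basement membrane partners 18 of 20 were above 0, led by Hspg2 (perlecan) at 1.17, and of fibril partners 15 of 21, led by the glycoprotein Tnc at 1.24. Of the collagen folding enzymes and chaperones 7 of 21 were above 0, near the share of all genes, with a median of -0.067 beside -0.11 over all genes. Among them, Ppib, a prolyl isomerase, was at -0.54 and Serpinh1, the collagen chaperone HSP47, at -0.35. These counts were not matched for length, with which the set difference rose. In decile 10 the lower quartile of all genes was already 0.045, while the median of decile 4 was -0.19. Hspg2 (14187 bases) and Tnc (7106) belong to decile 10, and Serpinh1 (2274) to decile 4. The part of length in the counts was not tested.

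Age was the next comparison. Between E11.5 and E12.5 in controls, Col5a2 rose and Col18a1 fell, both by small amounts, and the other 7 members did not pass the test. Thus 2 of 9 were called, where 21.7% of all genes were called (2794; 16.5% higher and 5.19% lower), so the members' share was near the background. Col5a2 was higher by 0.19 (SE 0.0524, adjusted p = 0.0227), with all 3 E12.5 controls (32.0 to 33.6 RPKM) above all 3 of E11.5 (27.5 to 29.4). Col18a1 was lower by 0.25 (log2 difference -0.25, SE 0.0706, adjusted p = 0.0287), with 32.5 to 34.5 RPKM below 37.5 to 40.9. Col1a2 (-0.24, adjusted p = 0.0672) and Col4a1 (-0.22, adjusted p = 0.0788) also had ranges that did not overlap, both lower. Ranges without overlap were found for 13.3% of genes in the lower direction, against 3 of 9 members, and for 32.6% in the higher direction, against Col5a2 alone.

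In Sox9-deficient limb buds the same contrast had 2 of 9 called, where 19.7% of genes were called (2539; 14.5% higher and 5.23% lower). Col1a2 fell by 0.27 (SE 0.0815, adjusted p = 0.0373), from 42.6 to 53.8 RPKM in Sox9null to 36.2 to 40.0 in Sox9cKO. Col18a1 fell by 0.23 (SE 0.0661, adjusted p = 0.0341), from 37.1 to 45.2 to between 32.8 and 35.1 RPKM. Both ranges were without overlap, as were those of 9.75% of genes in the lower direction. Col5a2 was at 0.15 with an adjusted p of 0.0517. Here Sox9 was removed in a different way at each age, and the library sets hold only E11.5 libraries, so age, genotype and set cannot be told apart fully. Over the 4 groups together, the authors' deposited table gives an adjusted p of 0.0223 for Col5a2, 0.0349 for Col18a1 and 0.0688 for Col1a2, and from 0.175 to 0.986 for the other 6.

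These age calls rested on few libraries. For controls, Col5a2 lost its call without E11.5 control 1 (adjusted p = 0.0797), E12.5 control 1 (0.0643) or E12.5 control 3 (0.0869) in limma. Col18a1 lost its call without either of those E12.5 controls (0.103 and 0.0875) or E11.5 control 1 or 2 (0.0839 and 0.0781). In the mutants, Col1a2 and Col18a1 lost theirs without Sox9null 1 or 2, or any one of the Sox9cKO libraries, with adjusted p between 0.0527 and 0.126 by limma. Col1a2 also lost it without E12.5 control 2 (0.0527). Leaving out a library also gave calls to other members. In controls these were Col1a2 without Sox9null 2 (adjusted p = 0.0311 by limma) and Col12a1 without E11.5 control 2 (0.0381), and in mutants Col5a2 without E11.5 control 2 (0.0476), Sox9null 2 (0.0480) or Sox9cKO 3 (0.0234).

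The age difference of some members turned on how the sets were treated. With the set as a term and E12.5 coded with the set of 4, Col1a1 was 0.48 higher at E12.5 in controls (adjusted p = 0.00381, limma), and with E12.5 coded with the set of 3 it was -0.56 (adjusted p = 0.00189). Without the set it was 0.13 (adjusted p = 0.803). Col5a1 was at 0.57 and -0.028, and Col12a1 at 0.80 and 0.054, under the same codings. Col5a2 and Col18a1 kept their direction under both. With library medians made equal, every difference in controls shifted by -0.10, and Col5a2 was then at 0.091 (adjusted p = 0.261) and Col18a1 at -0.35. Under that scaling Col1a2, Col3a1 and Col4a1 passed as lower (-0.34, -0.22 and -0.32, with adjusted p of 0.0268, 0.0396 and 0.0337 by limma), while Col3a1 was at 0.11 with quantile normalization. Col18a1 missed the threshold with totals equalised outside the erythroid list (adjusted p = 0.0824), and with quantile normalization both it (0.107) and Col5a2 (0.0648) did. In mutants Col1a2 and Col18a1 missed it with quantile normalization (0.123 and 0.0779), with equalised totals (0.0771 and 0.0825) and with only the libraries of the groups compared in the fit (0.0967 and 0.101), while the last of these gave Col1a2 a call in controls (0.0460). Log2 values of E12.5 libraries correlated with those of the set of 4 at r of 0.918 to 0.961 and with those of the set of 3 at 0.897 to 0.942, ranges that overlap. As the sign or size turned on the coding, no direction with age is given for Col1a1, Col5a1, Col12a1 or Col4a2.

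Sex was uneven between the groups. Y-linked genes were present in 1 of 3 E11.5 controls, 1 of 4 Sox9null, 3 of 3 E12.5 controls and 1 of 3 Sox9cKO libraries. With sex as a term, Col18a1 missed the threshold in controls (-0.22, adjusted p = 0.0855, limma), while Col5a1 (0.61, adjusted p = 0.0440) and Col12a1 (0.88, adjusted p = 0.0199) passed as higher. Col5a2 then passed in mutants (0.16, adjusted p = 0.0289).

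**Figure D5:**
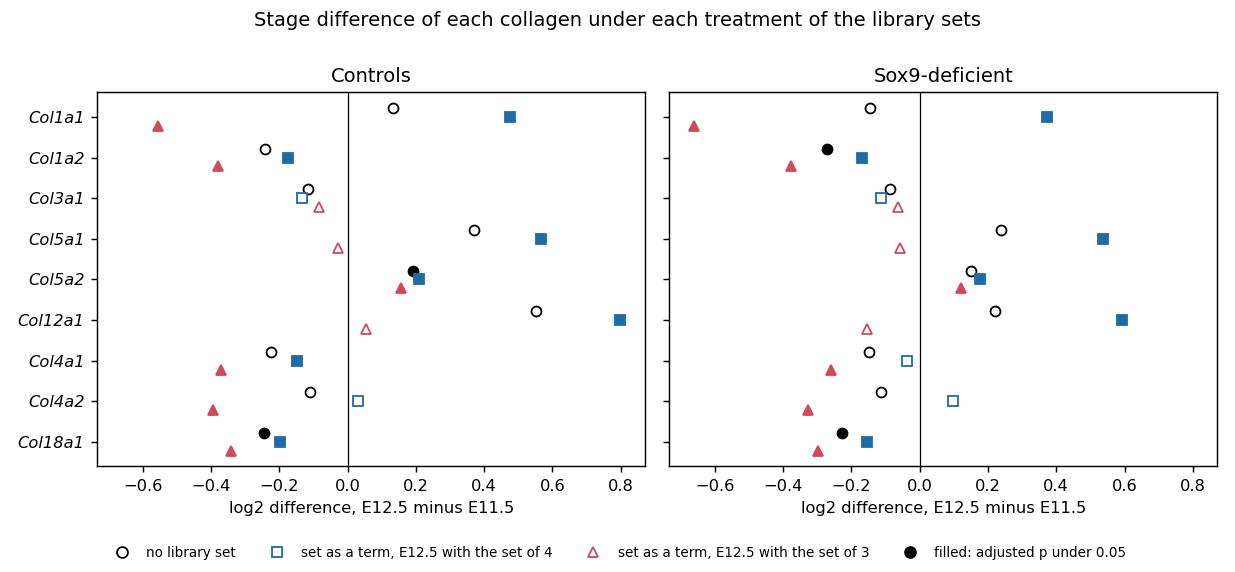
Log2 difference of E12.5 minus E11.5 (horizontal axis) for each member in controls (left) and Sox9-deficient limb buds (right), without the library set (circles) and with the set as a term under each coding of E12.5 (squares and triangles); filled symbols are called by limma. Col1a1 in controls moves from 0.48 to -0.56 between the codings, while Col18a1 stays below 0 and Col5a2 above it in all 6 of their points.

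The genes that build, process and bind collagen were counted beside the members, with lists chosen with earlier results of these data known. At E11.5 none of the 21 folding and modification genes, 10 processing and crosslinking genes, 21 fibril partners, 20 basement membrane partners or 15 receptors and turnover genes was called between mutants and controls. At E12.5 the only one was Glt25d2, a collagen galactosyltransferase, which fell by 0.73 (adjusted p = 0.0433) from 6.12 ± 1.18 to 3.27 ± 0.364 RPKM. The list medians at E12.5 were -0.087, -0.056, -0.15, -0.12 and -0.016 beside 0.013 over all genes.

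With age in controls, the lists are read beside the 16.5% of all genes called higher and the 5.19% called lower. Of folding and modification genes 12 of 21 rose and none fell, among them Glt25d2 (1.18), Sec24d (0.72), which builds the vesicle coat for procollagen export, and Crtap (0.54), part of the prolyl 3-hydroxylation complex. Of processing and crosslinking genes 6 of 10 rose, led by Lox (1.43), the lysyl oxidase that crosslinks fibrils, from 5.82 ± 1.16 to 17.4 ± 2.58 RPKM. Of fibril partners 11 of 21 rose and 2 fell. The small proteoglycan Dcn rose by 1.75, from 6.73 ± 1.95 to 24.7 ± 4.11 RPKM, while Fbln1 was lower (-0.29). Of basement membrane partners 5 of 20 rose, led by Smoc2 (1.05), and Smoc1 fell by 0.51. Of the 15 receptors and turnover genes only Timp1 and Itga6 rose (0.38 and 0.20), a share below that of all genes, and the gelatinase Mmp2 was lower (-0.23). The medians of the 5 lists were 0.28, 0.52, 0.42, 0.090 and 0.091, beside 0.16 for the 6 fibrillar members, -0.22 for the 3 basement membrane members and 0.060 over all genes. Both member medians include genes for which no direction with age is given above. Calls and medians with age, here and in the mutants and cell type markers below, are from the fit without the library set. The same lists with the set as a term are not given, though their median set differences reached 0.28 (basement membrane partners).

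In the Sox9-deficient libraries the same lists had 10 of 21, 6 of 10, 8 of 21, 3 of 20 and 1 of 15 genes higher with age, and 0, 1, 1, 1 and 1 lower, where 14.5% of all genes were called higher and 5.23% lower. The basement membrane partners were thus near the share of all genes, and the receptors and turnover genes below it. Lox (1.06) and Dcn (1.29) rose there as well. Of the 14 other collagens, 11 rose with age in controls and 4 in mutants, with none lower. They included the microfibril collagen chain Col6a1 (1.11 in controls, 0.66 in mutants) and Col8a1 (1.42 and 1.77), a short-chain collagen. The comparison of the counts between controls and mutants was not tested.

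Markers of other limb cell types were counted against the same background, 16.5% of all genes called higher with age in controls. There 6 of 8 muscle markers in the table rose (Acta1 by 3.31) and Pax3 fell by 0.98. Also higher were 8 of 10 macrophage markers, 4 of 12 epidermis markers, 2 of 3 tendon markers (Kera by 1.68 and Mkx by 0.77), 2 of 4 pericyte and smooth muscle markers (Acta2 by 1.41) and 1 of 4 osteoblast and perichondrium markers (Sp7 by 0.66). The tendon marker Scx had lower means with age (41.5 to 38.0 RPKM), as had the pericyte marker Pdgfrb (42.8 to 38.0), neither called. Of the 10 limb mesenchyme markers, 1 was called higher and none lower. Their differences were below 0 in 9 of 10, with a median of -0.18 beside 0.060 over all genes. Endothelial markers had 2 of 17 called higher, below the share of all genes. Summed osteoblast markers were 15.5 to 19.7 RPKM in E11.5 controls and 21.4 to 24.6 in E12.5 controls, and the defining markers Runx2, Ibsp and Bglap were not analysed here. Their part in the members' values was not tested.

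Genes most like the members over the 13 libraries were ranked by root mean square difference of centred log2 values. For the mean profile of the 6 fibrillar members (SD 0.18) they were Fam120c (0.052), Myo1d (0.057), Arhgap31 (0.058) and Gab1 (0.061). For the mean of Col4a1 and Col4a2 (SD 0.15) they were Kdm3b (0.039), Pml (0.039), Tsc22d2 (0.041) and Nup188 (0.041). None of these 8 is a matrix gene in the lists used here. The profiles share the split into library sets, so this is a description over 13 libraries.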

How the data were processed

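RNA-seq values of 13 mouse limb bud libraries were used. RNA came from whole limb buds with an RNeasy kit, per the labels, and CASAVA 1.8 and mm10 are named in the submitters' processing notes. The sources used here do not state the aligner, counting, strand or normalization between libraries. Per the file headers, the deposited values are normalized RPKM (reads scaled by gene length and library depth), listed by the authors for genes averaging at least 3 in at least 1 of 4 groups, with an adjusted p-value over the groups deposited by the authors. Read counts are not in the table, so counting error is not given.

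The members and gene lists were chosen with earlier results of these data known. Named genes were the 9 members, other collagens, and of each list the called genes with the largest changes plus level references. Values were fitted as log2(RPKM + 1) with limma 3.58.1 (R 4.3.3; trend, robust), 1 mean per group, 5 comparisons, two-sided, Benjamini-Hochberg over 12880 genes, called under 0.05; differences are given on that scale, which shrinks those of low genes. The fit was tested on simulated data. Each group's libraries are separate embryos per the file headers. E11.5 library sets came from average-linkage clustering on 1 − Pearson r. Alternatives changed the filter, pseudocount, scaling, variance model, libraries, replicate block, library set and a sex term read from Y-linked genes; within-set fits and the second set coding were added after seeing the data.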

Additional observations from a re-analysis of the deposited data

How the results depend on the processing

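Counts of called members in the mutant comparisons and in their interaction stayed at 0 under every alternative run, while counts over all genes ran from 0 to 41 at E11.5 (7 as reported), from 9 to 105 at E12.5 (25) and from 0 to 10 for the interaction (4). For age in controls, where 2 members were called, the count was 4 with equal library medians, 0 with quantile normalization, 1 with equal totals outside the erythroid list, 7 and 6 with library set as a term (E12.5 coded with the set of 4 and of 3), and 0 to 3 leaving out 1 library; over all genes it ran from 1379 to 7989 (2794). For age in mutants (2 called) it was 0 with quantile normalization, 0 with equal totals, 0 with only the groups compared, 6 and 6 with the set as a term, and 0 to 3 leaving out 1 library; over all genes it ran from 707 to 7903 (2539). Within-set fits and the coding with the set of 3 were chosen after seeing the data, and the cause of each change was not tested.

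Mutant differences near 0 changed sign, none called. At E11.5 with the set as a term Col1a1 was -0.013, Col1a2 -0.028, Col5a2 -0.0047, Col12a1 -0.049 and Col18a1 -0.016, and all 9 members were then below 0, with Col5a1 at -0.15 and Col4a2 at -0.088. The share of all genes below 0 in that fit is not given here. In the set of 4 alone Col1a1 was -0.048, Col1a2 -0.068, Col12a1 -0.039 and Col18a1 -0.067, and in the set of 3 alone Col3a1 was 0.12, Col5a2 -0.017 and Col12a1 -0.064. Equal medians gave Col1a2 -0.017, Col5a2 -0.019 and Col18a1 -0.016, and equal totals gave -0.0028, -0.0053 and -0.0020. Sex as a term gave Col1a2 -0.0035 and Col5a2 -0.0022, and quantile normalization gave Col5a2 -0.0011. At E12.5 Col3a1 was -0.040 with quantile normalization and -0.0051 with equal totals, and Col4a1 was -0.041 with sex as a term. Leaving out 1 library, E11.5 values ran from -0.036 to 0.49 (Col1a1), -0.061 to 0.056 (Col1a2), -0.080 to 0.030 (Col3a1), -0.18 to 0.13 (Col5a1), -0.019 to 0.026 (Col5a2), -0.11 to 0.33 (Col12a1), -0.087 to 0.016 (Col4a1), -0.11 to 0.10 (Col4a2) and -0.052 to 0.040 (Col18a1). E12.5 values ran from -0.063 to 0.020 (Col1a2), -0.049 to 0.055 (Col3a1), -0.070 to 0.013 (Col5a2) and -0.066 to 0.0091 (Col4a2).

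For age, the coding with the set of 3 gave Col1a1 -0.56 and Col5a1 -0.028 in controls, and Col5a1 -0.058 and Col12a1 -0.15 in mutants. The coding with the set of 4 gave Col4a2 0.032 in controls, and Col1a1 0.37 and Col4a2 0.10 in mutants. Col3a1 was 0.11 and 0.075 with quantile normalization, and Col4a2 in controls was 0.019 with sex as a term. Leaving out 1 library, Col1a1 ran from -0.042 to 0.46 in controls and -0.35 to 0.051 in mutants, and Col4a2 from -0.17 to 0.0095 in controls.

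Replicate numbers did not pair the samples (correlations of same-numbered deviations -0.435, 0.635 and 0.441 at E11.5, and 0.169, 0.0266 and -0.117 at E12.5). With the replicate block 0 members were called in the mutant comparisons, and at E11.5 Col5a1 was 0.050 and Col4a2 0.061. Depth is not in the table, so a limit from counting cannot be given. At 3 or 4 embryos a group, the E11.5 intervals without the library set were -0.52 to 0.84 for Col1a1 and -0.44 to 0.59 for Col12a1. In the same libraries with the set as a term, they were -0.22 to 0.19 and -0.25 to 0.16.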
